A study of Mus musculus with 8 samples.

Results

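The genes described here encode the pore-forming subunits of 5 ion channels of the sarcolemma, the surface membrane of the muscle fibre, and its T-tubules: Scn4a, Clcn1, Kcnj2, Kcnj11 and Kcnn3. They were taken from the gene table of an RNA-seq experiment on quadriceps femoris (QF) muscle as the rows that carry these symbols, and all 5 were found among its 14012 genes. Knockout QF came from 4 Grpel1skm-/- mice, in which a floxed Grpel1, the gene of a mitochondrial co-chaperone of protein import, is removed by Cre-ERT2 made under the human skeletal muscle actin (HSA) promoter after tamoxifen injections started at 5 weeks of age. Control QF came from 4 Grpel1 flox/flox mice. Both groups thus carried the floxed gene, on a line founded in C57BL/6NCrl blastocysts. The knockout mice were killed within 5 weeks of the first injection. The study describes floxed littermates as untreated where it follows body weight. Its weight curve shows floxed Cre mice without tamoxifen, floxed mice without Cre given tamoxifen, and wild type Cre mice given tamoxifen. The labels name no treatment for either group. For the sequenced controls, Cre and tamoxifen are not given in the sources used here, so effects of either cannot be told apart from loss of Grpel1. The promoter drives Cre in muscle fibres, while satellite, vascular, nerve, fat and immune cells of the same tissue piece keep the gene.

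An action potential in a skeletal muscle fibre begins at the endplate and travels along the sarcolemma and into the T-tubules by the opening of voltage-gated sodium channels. A large resting chloride conductance and inward rectifier potassium channels hold the resting potential and damp the membrane after each action potential, so that 1 nerve impulse gives 1 twitch. Loss or gain of function of these channels is known to cause myotonia or periodic paralysis. Fibres that lose their nerve are known to remodel the set of channels, with the apamin-sensitive small-conductance (SK) potassium channel appearing beside the adult channels.

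Scn4a encodes Nav1.4, the sodium channel of adult skeletal muscle (Entrez Gene 110880, chr11:106318593-106349390, minus strand of GRCm38, 24 annotated exons at most). Clcn1 encodes ClC-1, which carries the resting chloride conductance (Entrez Gene 12723, chr6:42286685-42314656, plus strand, up to 23 exons). Kcnj2 encodes Kir2.1, an inward rectifier (Entrez Gene 16518, chr11:111066164-111076825, plus strand, 2 exons). Kcnj11 encodes Kir6.2, the pore of the ATP-sensitive potassium (KATP) channel, which closes when ATP is plentiful (Entrez Gene 16514, chr7:46097123-46100764, minus strand, 2 exons). Kcnn3 encodes SK3, a calcium-activated potassium channel (Entrez Gene 140493, chr3:89520164-89672494, plus strand, up to 8 exons). Counts were made over whole genes, and none of the 5 spans overlapped that of another gene in the table.

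The set of RefSeq promoters used here held 4 of the 5 genes and not Kcnj11. Promoters were taken as 250 bases before to 50 bases after the annotated start (GRCm38.p6). They are shown because the genes moved in opposite directions, 5′ to 3′ on the strand of the gene, with capitals marking each E-box (CANNTG, the core bound by myogenic bHLH factors such as MyoD and myogenin) and each MEF2 motif, searched on both strands. The windows are chr11:106349341-106349640 for Scn4a, chr6:42286435-42286734 for Clcn1, chr11:111065914-111066213 for Kcnj2 and chr3:89519914-89520213 for Kcnn3.
Scn4a: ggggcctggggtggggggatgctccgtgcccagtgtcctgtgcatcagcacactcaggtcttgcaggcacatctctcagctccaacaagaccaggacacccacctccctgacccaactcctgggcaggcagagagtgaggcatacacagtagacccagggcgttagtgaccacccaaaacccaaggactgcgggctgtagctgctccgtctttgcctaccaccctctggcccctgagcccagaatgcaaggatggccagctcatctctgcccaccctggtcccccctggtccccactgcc
Clcn1: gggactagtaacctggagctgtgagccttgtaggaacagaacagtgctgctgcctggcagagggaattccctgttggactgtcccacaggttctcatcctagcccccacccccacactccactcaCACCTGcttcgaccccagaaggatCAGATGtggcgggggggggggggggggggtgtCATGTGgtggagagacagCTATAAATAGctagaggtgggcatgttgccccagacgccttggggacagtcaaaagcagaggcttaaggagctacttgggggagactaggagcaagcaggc
Kcnj2: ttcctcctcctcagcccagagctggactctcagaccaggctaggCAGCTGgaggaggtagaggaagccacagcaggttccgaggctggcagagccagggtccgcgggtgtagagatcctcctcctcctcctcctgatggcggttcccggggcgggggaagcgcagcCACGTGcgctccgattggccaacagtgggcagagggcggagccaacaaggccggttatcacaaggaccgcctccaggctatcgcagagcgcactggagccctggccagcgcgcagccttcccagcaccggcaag
Kcnn3: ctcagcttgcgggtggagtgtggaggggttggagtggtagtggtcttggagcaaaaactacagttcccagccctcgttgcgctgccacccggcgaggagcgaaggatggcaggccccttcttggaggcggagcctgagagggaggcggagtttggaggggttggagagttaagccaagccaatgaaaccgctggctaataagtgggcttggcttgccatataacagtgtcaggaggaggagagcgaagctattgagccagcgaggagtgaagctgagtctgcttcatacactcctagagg
The Clcn1 window held 3 E-boxes, which were CACCTG beginning 125 bases before the start (-125), CAGATG at -101 and CATGTG at -69. It also held 1 MEF2 motif, CTATAAATAG, from -51 to -42, which contains the TATA motif TATAAA from -50 to -45. The Kcnj2 window held 2 E-boxes, CAGCTG at -206 and CACGTG at -84, with 2 matches of GGGCGG and 1 of CCAAT, both also searched on both strands. The Kcnn3 window held 1 CCAAT, from -72 to -68, and neither E-box nor MEF2 motif, and the Scn4a window held none of the 6 motifs searched, the last being TGATGNAA, a core of the ATF4-C/EBP composite site. Of all 32851 RefSeq promoter windows of this length, 72.3% held an E-box, 3.19% a MEF2 motif, 13.6% TATAAA, 35.7% GGGCGG, 37.4% CCAAT and 3.97% TGATGNAA. The GC content was 63% for Scn4a, 59% for Clcn1, 66.7% for Kcnj2 and 57.7% for Kcnn3, beside a median of 52.7%. A match is a run of letters and not a measured binding site.

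Library totals ran from 16017565 to 18813042 counts for control QF and from 16424608 to 20361144 counts for knockout QF. The TMM factors, which correct library size for composition, did not overlap, with 0.747 to 0.844 for control and 1.19 to 1.33 for knockout libraries. Levels are given as CPM, the counts scaled to the TMM-adjusted library size, and a log2 fold change above 0 means higher in knockout QF. Grpel1 itself ranged from 64.1 to 71.2 CPM among control libraries and from 59.9 to 71.9 CPM among those labelled knockout (log2 fold change -0.07, SE 0.078, edgeR adjusted p = 0.487). The count over the whole gene therefore does not check the labels, and every direction below rests on them. GRPEL1 protein, which the study followed by immunoblot, was not analysed here. Of the 14012 genes, 23.6% were higher and 21.1% were lower in knockout QF at an adjusted p under 0.01 (quasi-likelihood test of edgeR, Benjamini-Hochberg), and the median log2 fold change was 0.065. Every knockout library lay above every control library in 29% of genes and below in 24.4%. Of the called genes 52.7% were higher, a share that became 90.7% with library totals alone and 42.1% with the trend on gene length removed.

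Scn4a, Clcn1, Kcnj11 and Kcnj2 fell in Grpel1skm-/- QF and Kcnn3 rose, each with an edgeR adjusted p under 0.01 and with no overlap between the 4 knockout and the 4 control libraries. Knockout levels were 30.2% of the control mean for Scn4a, 46.7% for Kcnj11, 51.3% for Clcn1 and 58.5% for Kcnj2, while Kcnn3 reached 815% of it. Since 23.6% of all genes were called higher and 21.1% lower, the calls alone do not set these genes apart. The log2 fold change of Scn4a had 391 genes below it in the table and that of Kcnn3 had 213 above it. Kcnj11, Clcn1 and Kcnj2 had 998, 1267 and 1773 genes below them. The mean CPM of each of the 5 differed between the groups with p = 0.0286 in a two-sided exact permutation test over 70 assignments, the smallest p that 4 against 4 allows.

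**Figure D1:**
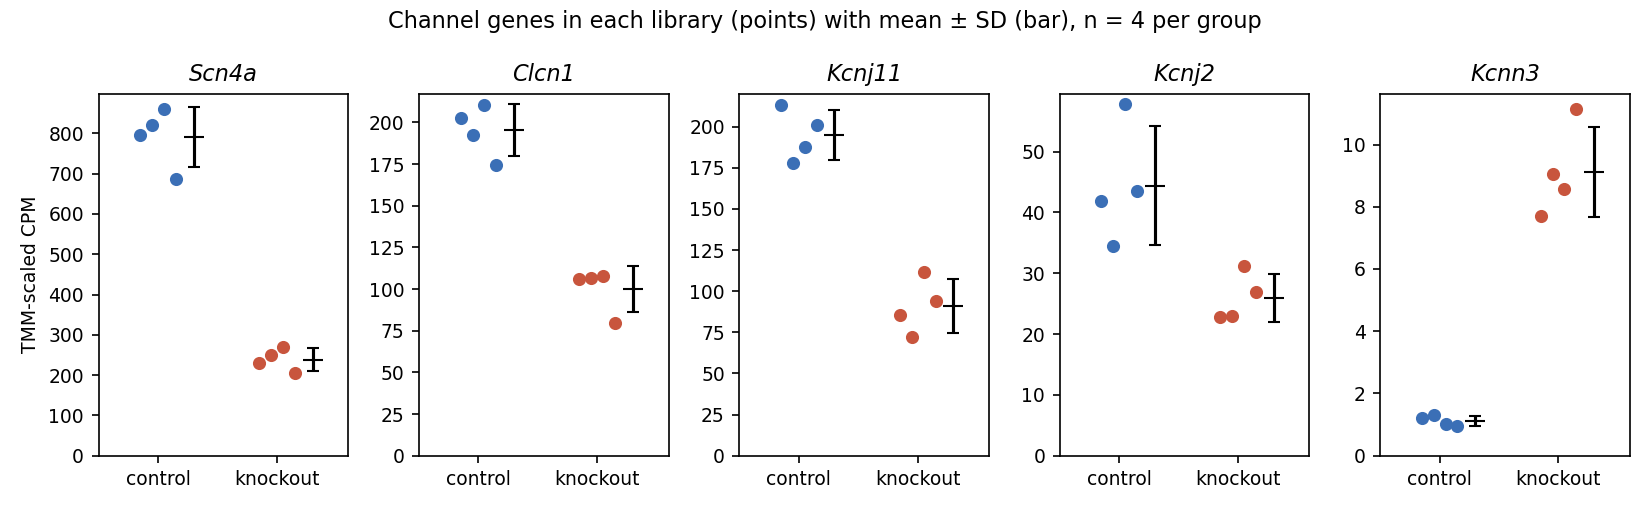
TMM-scaled CPM (y axis, linear, from 0, with its own scale per gene) of the 5 channel genes in each control (blue) and knockout (red) library, with the mean and SD of 4 libraries as a black bar. Every knockout point lies below every control point for Scn4a, Clcn1, Kcnj11 and Kcnj2 and above every control point for Kcnn3.

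Scn4a, the sodium channel that carries the upstroke of the action potential, showed the deepest fall. Its level was 795, 822, 861 and 687 CPM in control replicates 1 to 4 and 229, 250, 271 and 205 CPM in knockout replicates 1 to 4. The highest knockout library, at 271 CPM, stood far below the lowest control library, at 687 CPM, and the spread within a group was small beside this gap. The mean was 791 ± 74.8 CPM in control QF and 239 ± 28.2 CPM in knockout QF (SD, n = 4 each). The log2 fold change was -1.73 (SE 0.109, 95% interval -1.94 to -1.52, edgeR adjusted p = 1.04e-06), a 3.32-fold lower level, and -1.06 with library totals alone (adjusted p = 2.97e-06).

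Clcn1, the chloride channel whose loss gives myotonia, fell less. It had 203, 193, 211 and 175 CPM in control replicates 1 to 4 and 106, 107, 108 and 79.4 CPM in knockout replicates 1 to 4. Knockout replicate 4 stood below the other knockouts, which lay within 2 CPM of each other. The mean was 195 ± 15.6 CPM against 100 ± 13.8 CPM (SD, n = 4 each), with a log2 fold change of -0.96 (SE 0.109, 95% interval -1.18 to -0.75, edgeR adjusted p = 3.98e-05). With library totals alone in place of TMM the value was -0.29 and no longer called (adjusted p = 0.0142).

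Kcnj11, the KATP pore, had 213, 178, 188 and 201 CPM in control replicates 1 to 4 and 85.6, 72.3, 112 and 94.2 CPM in knockout replicates 1 to 4. Its control range was close to that of Clcn1, and its knockout libraries were more spread, with a coefficient of variation of 18.2% after 7.91% in the controls. The mean was 195 ± 15.4 CPM against 91.0 ± 16.6 CPM (SD, n = 4 each). The log2 fold change was -1.10 (SE 0.125, 95% interval -1.34 to -0.85, edgeR adjusted p = 4.28e-05), and -0.44 with library totals alone (adjusted p = 0.00485).

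Kcnj2, the inward rectifier of the resting membrane, had 41.9, 34.5, 57.8 and 43.5 CPM in control replicates 1 to 4 and 22.9, 22.9, 31.2 and 26.9 CPM in knockout replicates 1 to 4. The groups came close, since the highest knockout library stood at 31.2 CPM and the lowest control library at 34.5 CPM, and the controls varied most of the 5 genes with a coefficient of variation of 21.9%. The mean was 44.4 ± 9.72 CPM against 25.97 ± 3.96 CPM (SD, n = 4 each). This gave a log2 fold change of -0.77 (SE 0.157, 95% interval -1.08 to -0.47, edgeR adjusted p = 0.00189). The call was lost with library totals alone, where the log2 fold change was -0.10 (adjusted p = 0.515).

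Kcnn3, the SK3 channel, which is scarce in innervated adult fibres and known from denervated and fetal muscle, moved the other way. Only 15, 20, 14 and 15 counts were found for control replicates 1 to 4, beside 185, 198, 208 and 280 for knockout replicates 1 to 4. These counts corresponded to 1.21, 1.31, 1.002 and 0.945 CPM in the controls, above the 0.189 to 0.242 CPM that a count of 0 allows there, and to 7.71, 9.07, 8.59 and 11.1 CPM in the knockouts. The groups were far apart, and knockout replicate 4 was the highest. The mean rose from 1.12 ± 0.172 to 9.12 ± 1.45 CPM (SD, n = 4 each), with a log2 fold change of 3.03 (SE 0.177, 95% interval 2.68 to 3.37, edgeR adjusted p = 6.96e-07), an 8.15-fold higher level.

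Read per kilobase of exon, which allows genes to be set beside each other, control QF had 120 ± 11.3 CPM per kb of Scn4a, 59.9 ± 4.74 of Kcnj11, 55.1 ± 4.40 of Clcn1, 8.15 ± 1.79 of Kcnj2 and 0.147 ± 0.0226 of Kcnn3 (SD, n = 4 each). Kcnj11 and Clcn1 overlapped across libraries, and the other neighbours in this order did not. In knockout QF the order began with Scn4a at 36.2 ± 4.28 CPM per kb, followed by Clcn1 at 28.2 ± 3.89, Kcnj11 at 27.99 ± 5.10, Kcnj2 at 4.77 ± 0.728 and Kcnn3 at 1.20 ± 0.190. There the library ranges of Kcnj11, 22.3 to 34.4 CPM per kb, overlapped those of both Scn4a, 31.1 to 41.0, and Clcn1, 22.4 to 30.5. Within each knockout library, however, Scn4a stood above Kcnj11. Kcnn3 remained below Kcnj2 in all 8 libraries.

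The ratio of 2 genes within a library does not depend on library scaling, and it was compared between the groups for all 10 pairs (two-sided exact permutation test over 70 assignments, Benjamini-Hochberg over the pairs). The ratio of Scn4a to Clcn1 fell by 0.76 on the log2 scale and that of Scn4a to Kcnj2 fell by 0.97, with no overlap of the groups (exact p = 0.0286, adjusted p = 0.0477 each). With the same p values, the ratio of Kcnn3 to Kcnj2 rose by 3.67 and that of Kcnn3 to Kcnj11 by 4.03, while that of Clcn1 to Kcnn3 fell by 3.89 and that of Scn4a to Kcnn3 fell by 4.65. The p values of the Kcnn3 pairs were set in advance, since Kcnn3 rose and the other genes fell without overlap. They also lower the adjusted p of the Scn4a ratios, which is therefore no firm support at 0.05. The ratio of Scn4a to Kcnj11 changed by -0.62 with overlapping groups (exact p = 0.0571, adjusted p = 0.0816). Among Clcn1, Kcnj2 and Kcnj11 no pair passed the threshold of 0.05, with changes of -0.21, 0.14 and 0.35 for Clcn1 to Kcnj2, Clcn1 to Kcnj11 and Kcnj2 to Kcnj11 (exact p = 0.343, 0.514 and 0.114) beside a spread of 0.106 to 0.361 (SD) within a group, so smaller differences between these genes were not detectable here.

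**Figure D2:**
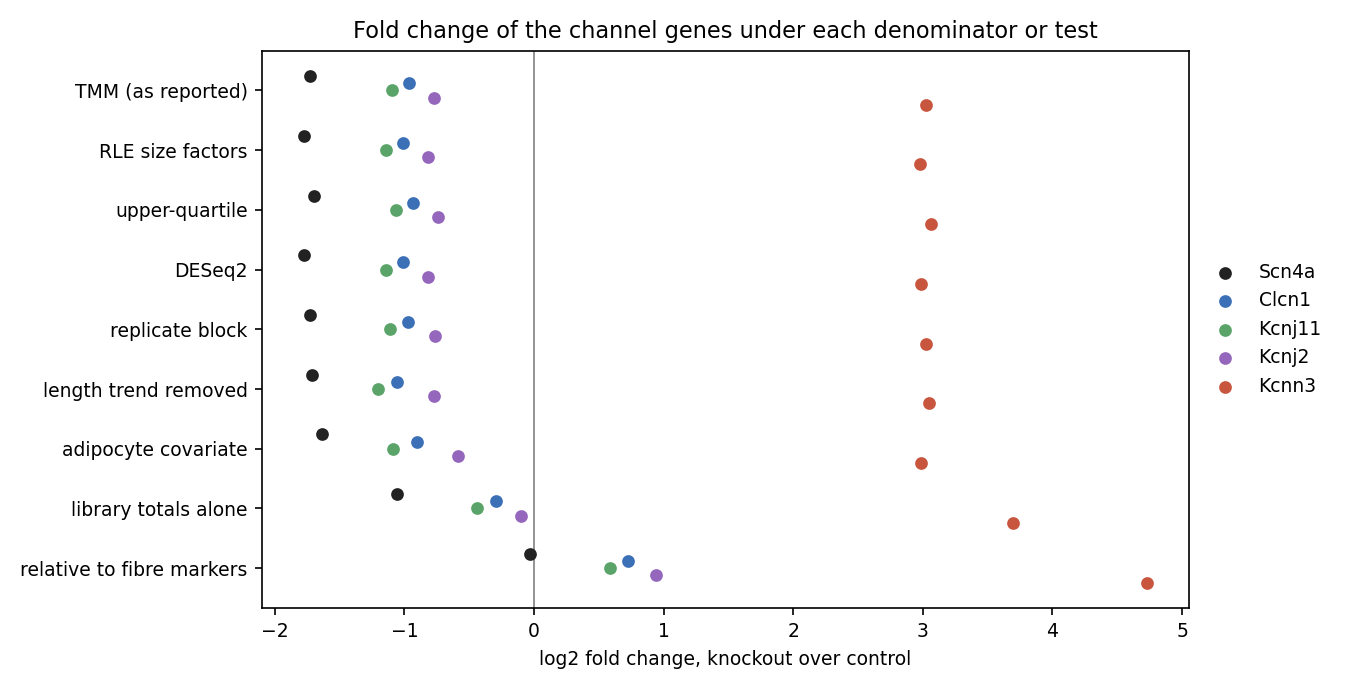
Log2 fold change (x axis, knockout over control) of the 5 channel genes under 9 denominators or tests (rows). Scn4a stays left of -1 and Kcnn3 right of 2.9 in the first 8 rows, Clcn1 and Kcnj2 come close to 0 with library totals alone, and in the last row, relative to the muscle fibre markers, Scn4a lies at -0.03 and the other genes right of 0.

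Most markers of the muscle fibre were lower in knockout QF, where 21.1% of all genes were lower and 23.6% higher. Of 10 fibre markers, all measured, 9 fell (Acta1, Ckm, Actn3, Mylpf, Tnnt3, Tnnc2, Myh4, Pvalb and Ttn) and Des, the intermediate filament desmin, rose. Together they took 20.7% ± 1.46 of all counts in control QF and 10.2% ± 1.02 in knockout QF (SD, n = 4 each), and their summed level was 227000 to 299000 CPM against 71200 to 97600 CPM. Myh4, a fast-fibre myosin gene, weighed most in this sum, at a mean of 103900 CPM in control and 20580 CPM in knockout QF. Whether the sum follows the amount of fibre or the type of fibre was not tested. In bulk muscle, fewer cells of a type and less RNA per cell cannot be told apart. Relative to this sum, an alternative denominator chosen after seeing the data, Scn4a changed by -0.03 on the log2 scale with overlapping groups (exact permutation p = 0.657). On the same denominator Kcnj11, Clcn1 and Kcnj2 were higher in knockout QF by 0.59, 0.73 and 0.94, and Kcnn3 by 4.73, each without overlap (exact permutation p = 0.0286). Clcn1, Kcnj11 and Kcnj2 thus fell less than the marker sum, and the change of Scn4a could not be told from that of the sum beside a spread of 0.107 and 0.167 (SD) within the groups.

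Markers of other cells were given the same count, to be read beside 23.6% of all genes higher and 21.1% lower. Satellite cell markers summed to 28.1 to 31.9 CPM in control and 38.5 to 54.4 CPM in knockout QF, with 2 of 4 higher (Myf5 and Cdh15) and 1 lower (Calcr). Of 6 endothelial markers 5 were lower (283 to 422 CPM against 205 to 231 CPM), as were 2 of 6 mural markers (428 to 698 CPM against 415 to 472 CPM) and 3 of 5 fibroblast markers (1290 to 1820 CPM against 529 to 774 CPM). No Schwann cell marker of 5 passed (67.9 to 176 CPM against 91.7 to 142 CPM), and of 5 macrophage markers Cd68 was higher (37.9 to 89.6 CPM against 69.6 to 122 CPM in sum). The 5 adipocyte markers varied most, from 29.3 to 852 CPM in control and from 346 to 1480 CPM in knockout QF, and none passed. No marker was at 0 in all libraries. With the mean log2 CPM of the adipocyte markers as a covariate, the log2 fold changes were -1.64 for Scn4a, -0.90 for Clcn1, -1.09 for Kcnj11, -0.59 for Kcnj2 and 2.99 for Kcnn3, all still called. The part of the other cell types in the values of the channel genes was not tested.

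The sodium channel family remained dominated by Scn4a, and its make-up shifted. Of the summed CPM per kb of the 5 measured alpha subunits, Scn4a made up 98.6% ± 0.407 in control and 92.3% ± 1.70 in knockout QF, while the sum fell from 122 ± 11 to 39.1 ± 4.11 CPM per kb (SD, n = 4 each). The share of Scn7a, an atypical channel also made by non-muscle cells, was 1.17% ± 0.334 in control and 5.34% ± 1.53 in knockout QF (exact permutation p = 0.0286). Scn7a itself did not pass, at 7.51 to 12.4 CPM in control and 11.2 to 20.4 CPM in knockout QF (edgeR adjusted p = 0.0327), so its share also holds the fall of Scn4a in the sum. Of the 13 other sodium channel subunits listed, 8 were in the table, with a median log2 fold change of 0.623, beside 0.065 over all genes. Of these 3 were higher, 2 lower and 3 not past the threshold, beside 23.6% higher and 21.1% lower over all genes. Among those that rose were the alpha subunit Scn3a, with a log2 fold change of 1.19, and the beta subunit Scn3b, which had 0.787 to 1.29 CPM in control and 4.33 to 5.999 CPM in knockout QF (2.23).

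Scn4b, a beta subunit that accompanies Nav1.4 in adult muscle, fell further than the channel itself. It had 499, 572, 585 and 491 CPM in control replicates 1 to 4 and 55.5, 43.7, 67.4 and 44.8 CPM in knockout replicates 1 to 4, with every knockout library far below every control library (log2 fold change -3.34, SE 0.150, edgeR adjusted p = 1.82e-07). Within libraries, the ratio of Scn4a to Scn4b rose by 1.63 on the log2 scale without overlap of the groups. It was 1 of 7 ratios to partners, chosen after their values were seen (exact permutation p = 0.0286, adjusted p = 0.04 over the 7). Some of the 7 set a gene that rose against one that fell without overlap. Their p values were thus set in advance and lower this adjusted p.

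Among the CLC genes, the shares of Clcn1 and Clcn4 were lower in knockout QF and those of Clcn3 and Clcn7 were higher. Its share of the summed CPM per kb of the 7 measured CLC genes was 59.6% ± 1.27 in control and 41.5% ± 3.87 in knockout QF, that of Clcn3 10.5% ± 0.289 and 24.8% ± 1.36, and that of Clcn7 7.32% ± 0.478 and 14.3% ± 1.18, while that of Clcn4, another endosomal exchanger, was 19.04% ± 1.13 and 13.6% ± 1.40 (exact permutation p = 0.0286 each). The sum was 92.3 ± 5.92 and 67.8 ± 4.26 CPM per kb, a direction that turned with library totals alone (73.1 ± 1.55 and 85.4 ± 3.34). Of 15 other chloride channel genes listed, 12 were measured, with a median log2 fold change of 0.51. Of these 5 were higher, 2 lower and 5 not past the threshold, beside 23.6% higher and 21.1% lower over all genes. Clcn3, an endosomal chloride-proton exchanger, was at 58.5 ± 4.26 and 102 ± 5.21 CPM (log2 fold change 0.79), and Clcn7, its lysosomal relative, at 28.4 ± 1.53 and 40.7 ± 3.33 CPM (0.52). Ostm1, the beta subunit of the Clcn7 protein, was lower at -0.62, a direction that flipped to 0.04 with library totals alone. Clcn4 was lower at -0.93. Lrrc8d, a subunit of the volume-regulated anion channel, had 3.44 to 7.12 CPM in control and 22.9 to 35.7 CPM in knockout QF (2.49).

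Kcnj12 and Abcc9, the partners of Kcnj2 and Kcnj11 in muscle, fell. Of 15 other inward rectifier and KATP genes listed 6 were measured, of which 3 fell, 3 did not pass and 0 rose in edgeR's test, also 0 at an unadjusted p under 0.05, beside 21.1% lower and 23.6% higher over all genes, and their median log2 fold change was -0.678. Library totals alone called 1 of them higher, and with so few genes these counts do not set the group apart. Kcnj12, the Kir2.2 channel of muscle, had 160, 118, 136 and 87.2 CPM in control replicates 1 to 4 and 46.7, 42.0, 42.8 and 26.1 CPM in knockout replicates 1 to 4 (log2 fold change -1.67, SE 0.212, edgeR adjusted p = 8.78e-05). Kcnj2 made up 24.6% ± 5.61 of the summed CPM per kb of Kcnj2 and Kcnj12 in control and 37.7% ± 7.85 in knockout QF, a difference that did not pass (exact permutation p = 0.0571). The sum of both fell from 33.8 ± 6.81 to 12.8 ± 1.84 CPM per kb.

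Kcnj11 and its regulatory subunit both fell. Abcc9, the sulfonylurea receptor SUR2 that joins Kir6.2 in muscle, was at 305 ± 23.1 CPM in control and 163 ± 18.2 CPM in knockout QF, a log2 fold change of -0.90, which lost its call with library totals alone (-0.24, adjusted p = 0.0135). The ratio of Kcnj11 to Abcc9 changed by -0.20 with overlapping groups (exact permutation p = 0.229), within a spread of 0.197 and 0.232 (SD) in the groups. Kcnj8, the Kir6.1 pore of vascular smooth muscle, had 10.3 to 17.8 CPM in control and 10.2 to 12.4 CPM in knockout QF (adjusted p = 0.0915). Kcnj11 made up 90.2% ± 2.51 of the summed CPM per kb of both pores in control and 84.4% ± 1.41 in knockout QF (exact permutation p = 0.0286).

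**Figure D3:**
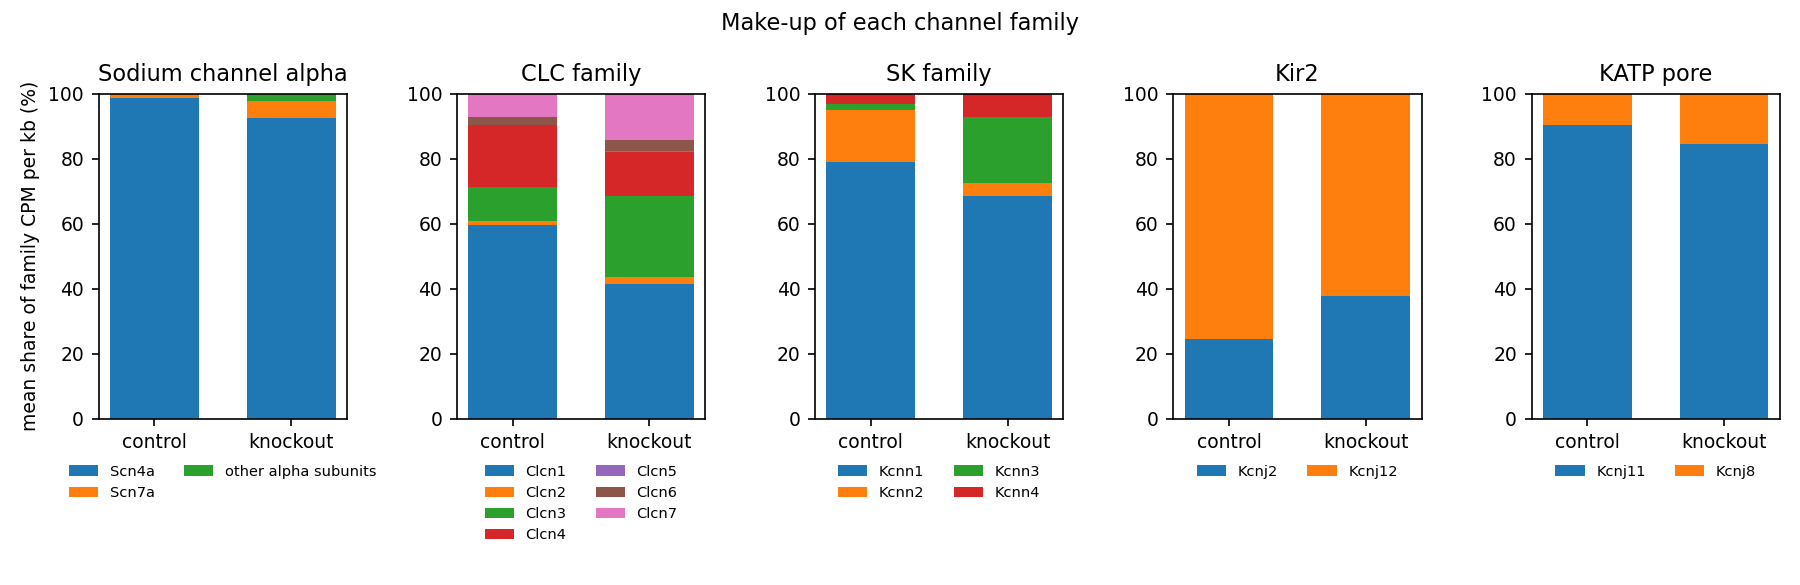
Mean share (y axis, percent of the family's summed CPM per kb, 4 libraries per group) of each measured member in control and knockout QF, for 5 channel families. Scn4a remains above 90% of the sodium channel alpha subunits, Clcn1 passes from 59.6% to 41.5% of the CLC genes, and Kcnn3 from 1.85% to 20.4% of the SK genes.

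The rise of Kcnn3 changed the make-up of the SK family. Kcnn3 made up 1.85% ± 0.267 of the summed CPM per kb of the 4 SK genes in control and 20.4% ± 2.98 in knockout QF without overlap (SD, n = 4 each, exact permutation p = 0.0286). The sum was 7.93 ± 0.644 and 5.86 ± 0.377 CPM per kb, a direction that turned with library totals alone (6.28 ± 0.277 and 7.40 ± 0.590, overlapping groups). Kcnn1 remained the most abundant per length, with 78.9% ± 4.50 and 68.4% ± 3.87 of the sum. Its log2 fold change of -0.64 turned to 0.03 with library totals alone. Kcnn2 had 3.23, 4.98, 5.08 and 5.23 CPM in control replicates 1 to 4 and 0.584, 1.33, 0.867 and 0.676 CPM in knockout replicates 1 to 4 (log2 fold change -2.43, SE 0.269, edgeR adjusted p = 3.54e-05). The ratio of Kcnn3 to Kcnn1 rose by 3.55 and that to Kcnn2 by 5.24 on the log2 scale, without overlap (exact permutation p = 0.0286, adjusted p = 0.04, among the 7 ratios above). Both p values were set in advance, since Kcnn3 rose and Kcnn1 and Kcnn2 fell without overlap. Of the 11 other genes listed as calcium-activated channels 6 were measured, with a median of -0.488. The calls were 1 higher, 2 lower and 3 not past the threshold, beside 23.6% higher and 21.1% lower over all genes. The 1 higher was Kcnu1 at 1.51, which was listed by its family and not for gating by calcium. Its call was lost in 6 of the 8 fits that left out 1 library. Kcnma1, the large-conductance BK channel, was at 37.2 CPM in control and 29.5 CPM in knockout QF (adjusted p = 0.16).

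The other potassium channels moved in both directions. Of 52 voltage-gated potassium channel subunits listed 25 were measured, of which 3 rose, 8 fell and 14 did not pass, beside 23.6% higher and 21.1% lower over all genes, with a median log2 fold change of -0.608. With library totals alone 5 were higher and 5 lower. Kcng4, a silent subunit that modifies Kv2 channels, fell from 80.8 to 131 CPM in control to 2.11 to 4.95 CPM in knockout QF (-4.93). Kcnc4, a fast Kv3 channel, fell from 88.7 to 158 CPM to 16.1 to 35.0 CPM (-2.35), and the beta subunit Kcnab1 fell with a log2 fold change of -2.82. Kcnf1, another silent subunit, was lower at -2.05, and its call was lost with library totals alone, with the adipocyte covariate and without 1 library. Kcne1l, an accessory subunit, rose from 0.252 to 1.31 CPM to 16.6 to 37.5 CPM (5.08). Of 14 two-pore channels, which carry background potassium currents, 7 were measured, with 3 higher, 4 not past the threshold and 0 lower in edgeR's test, also 0 at an unadjusted p under 0.05, and a median of 1.773. The same shares of all genes stand beside these counts, and the number higher was 2 with the adipocyte covariate and 5 with the replicate number as a block. Kcnk3, which did not pass (adjusted p = 0.0639), was lowest in replicate 3 of each group, at 0.501 CPM in control and 4.33 CPM in knockout QF. Each adipocyte marker was also lowest in replicate 3 of both groups. Kcnk5 was at 0.716 to 1.51 CPM in control and 8.09 to 11.7 CPM in knockout QF (3.32), and Kcnk2, or TREK-1, was higher at 1.26.

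For the sodium-potassium pump, which restores the gradients after activity, 13 of 15 listed genes of its subunit families were measured, with a median of 0.196. The calls were 4 higher, 3 lower and 6 not past the threshold, beside 23.6% higher and 21.1% lower over all genes. Atp1b2, a beta subunit of fast fibres, fell from 462 ± 26.4 to 149 ± 18.5 CPM (-1.63), and Fxyd1, or phospholemman, was lower at -0.63, which flipped to 0.03 with library totals alone. Atp1b4, listed by its gene family and not for a known part in the pump, rose from 5.90 to 10.7 CPM to 47.4 to 71.1 CPM (2.64). Fxyd7 and Atp1b3 were higher at 2.41 and 0.48. The call of Atp1b3 was lost in 1 of the 8 fits that left out 1 library and with the length trend removed. Among 18 of 19 listed partners and regulators of the channels, 1 was higher, 7 were lower and 10 did not pass, with a median of -0.289. The same shares of all genes stand beside these calls. Calm3, whose protein is the calcium sensor bound to SK channels and to Nav1.4, fell with a log2 fold change of -1.93. Prkca, a protein kinase C, an enzyme known to inhibit ClC-1, fell with -1.91. Mbnl1, the splicing regulator of Clcn1 whose function is lost in myotonic dystrophy, fell with -1.18.

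All 10 genes of a list that follows the nerve supply of the fibre were measured, and 8 rose and 2 fell, with a median log2 fold change of 3.275. Over all genes 23.6% were higher and 21.1% lower. The acetylcholine receptor subunits in the list rose, with Chrna1 at 3.91 to 24.1 CPM in control and 126 to 172 CPM in knockout QF (3.21) and Chrnd at 3.94. Other subunits of the receptor were not listed. Chrng, the fetal gamma subunit, had at most 0.327 CPM in a control library and 22.7 to 43.6 CPM in the knockouts. On the log2 scale Musk, the receptor kinase of the endplate, rose by 2.35, Myog, the myogenic factor myogenin, by 3.96, Ncam1 by 3.34, Runx1 by 3.39 and Gadd45a by 2.54. Hdac4, a repressor that is known to accumulate after denervation, was lower at -1.02 (not called with library totals alone, adjusted p = 0.0593). Dach2, a repressor of Myog that falls after denervation, was at 1.43 to 2.65 CPM in control and held 0, 2, 2 and 2 counts for knockout replicates 1 to 4. This list was drawn up with earlier results of these libraries known and is no independent evidence.

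**Figure D4:**
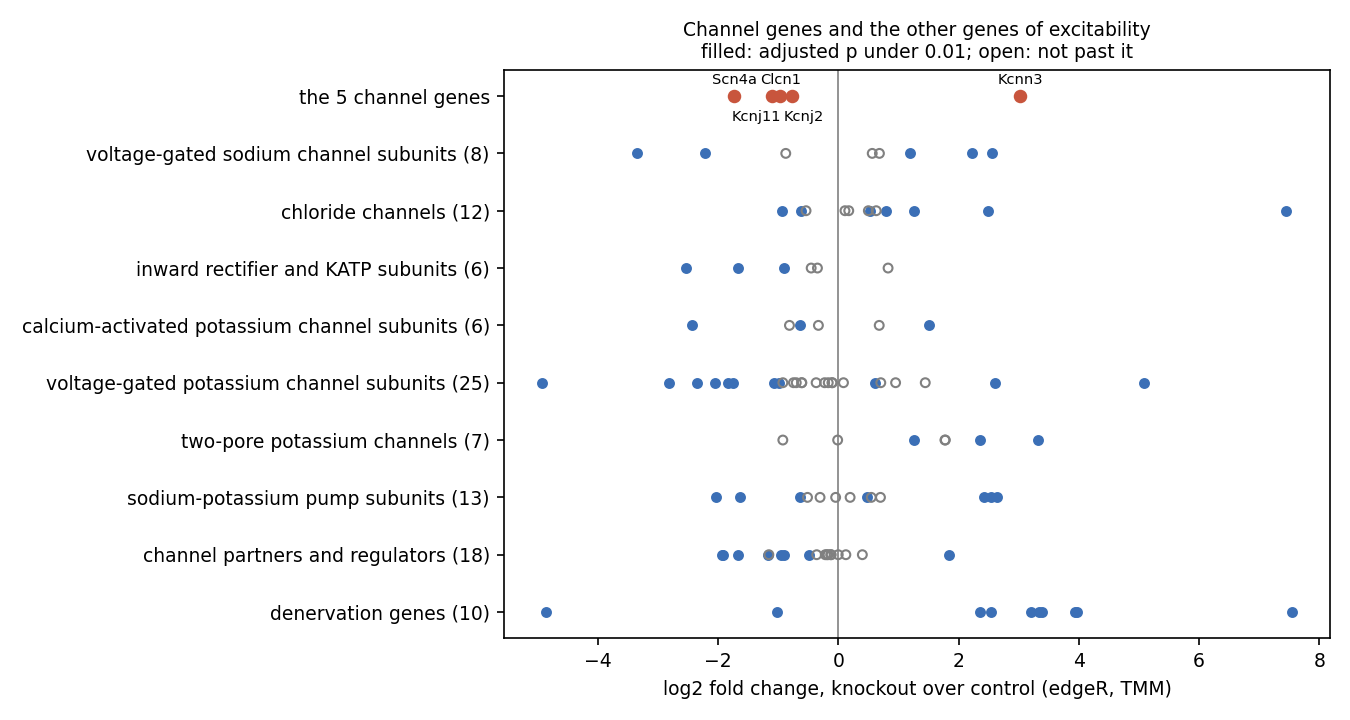
Log2 fold change (x axis, knockout over control, edgeR with TMM) of the 5 channel genes (red) and of the measured genes of 9 lists (rows, number measured in brackets), filled where the adjusted p was under 0.01 and open otherwise. The denervation genes lie mostly right of 2 and the inward rectifier and KATP subunits have filled points only left of 0, while the fitted values of points beyond 7, such as Chrng, depend on the prior count because the controls held few or no reads. With library totals alone the median of all genes moves from 0.065 to 0.733.

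The genes whose values lay closest to those of each channel were sought among 11047 genes. The measure was the root mean square (RMS) difference of log2 CPM over the 8 libraries after centring on the control mean. It keeps the shift between the groups, so it favours genes of like fold change. For Scn4a the closest genes were Slc37a4, the glucose 6-phosphate transporter of the endoplasmic reticulum, and Lrrc20, at 0.0594 and 0.0732, and 162 genes lay within 0.25. For Clcn1 they were Oat, ornithine aminotransferase, and Asrgl1, at 0.0769 and 0.0816, with 685 genes within 0.25. For Kcnj11 they were Ube2g1 and Fzd7, at 0.0934 and 0.107, with 384 genes within 0.25. For Kcnj2 they were 1700120C14Rik and Hpgd, at 0.125 and 0.135, with 488 genes within 0.25. Hpgd itself was not called (edgeR adjusted p = 0.0142). For Kcnn3 they were Myc and Snhg15, at 0.128 and 0.163, with 9 genes within 0.25, a number that is limited by the 14 to 20 counts of Kcnn3 per control library and by the 213 genes with a higher fold change. Myc, the growth-promoting transcription factor, went from 43, 52, 41 and 52 counts for control replicates 1 to 4 to 607, 525, 577 and 765 for knockout replicates 1 to 4.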

How the data were processed

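RNA-seq of QF, 1 library per mouse, from 4 Grpel1skm-/- and 4 control mice was analysed. The authors selected polyadenylated RNA, prepared directional libraries (NEBNext Ultra II) and deposited raw counts of read pairs per gene over exons, made with bcl2fastq 2.20.0.422, cutadapt, STAR 2.5.4b (GRCm38) and Rsubread, without duplicate, chimeric, multimapping or poorly mapped pairs, and genes with few reads were dropped. Use of strand in counting is not given in the sources used here. The deposited FPKM columns and the authors' fold changes and p-values from DESeq2 1.32.0 were not used. The deposited exon width per gene gave CPM per kb.

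All 14012 genes were tested with edgeR 4.0.16 (R 4.3.3), glmQLFit and glmQLFTest with TMM scaling, knockout against control, Benjamini-Hochberg adjustment over all genes, at an adjusted p under 0.01. Log2 CPM used a prior count of 2. The SE was taken from the log2 fold change and the F statistic. The 95% intervals used a normal quantile of this SE and are narrower than the F test itself would give. Single values were compared by two-sided exact permutation. The limit set by a count of 0 was 3 counts (95%, counting error only). The procedure was tested on simulated data. Groups and replicate numbers came from the titles, and no 2 libraries of a group were alike within sampling noise. The channel genes and the gene and marker lists were chosen with earlier results of these data known. Genes named from each list were, among those past the threshold without overlap of the groups and averaging 50 counts or more in the higher group, up to 4 with the largest and up to 4 with the smallest log2 fold change, every denervation gene, and the 2 nearest genes of each channel. A few others are named as examples by function, after their values were seen. Alternatives covered scaling, low and abundant genes, depth, DESeq2 1.42.0, gene length, an adipocyte covariate, the threshold, the replicate block and each library left out. Values of some listed genes are not reported here.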

Additional observations from a re-analysis of the deposited data

Results flagged for a closer look

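In groups of 4 libraries, a library was picked out where its gap to the nearest of the others was a larger share of the range of the group than Dixon's test allows at 95%, which happens by chance in about 1 in 20 groups. Of 94 groups tested 9 were picked out, and 1 of the 10 groups of the channel genes. For Clcn1, knockout replicate 4 had 79.4 CPM, while the other knockouts had 106 to 108 CPM. Among the other listed genes, control replicate 3 was high for Kcnu1 (1.57 CPM, others 0.404 to 0.589) and for Hdac4 (92.3 CPM, others 52.9 to 58.9), and low for Atp1b3 (32.3 CPM, others 40.1 to 41.5). Control replicate 1 was low for Kcnn2 (3.23 CPM, others 4.98 to 5.23) and for Atp1b4 (5.9 CPM, others 10.5 to 10.7). Knockout replicate 3 was low for Atp1b3 (46.2 CPM, others 56.5 to 57.4), knockout replicate 2 was high for Ncam1 (136 CPM, others 93.3 to 99.8), and knockout replicate 1 had 0 CPM of Dach2, where the others had 0.0795 to 0.0916 CPM. Each of these except Kcnu1 and Atp1b3 kept its call in every fit that left out 1 library.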

How the results depend on the processing

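Over 19 other settings, Scn4a, Kcnj11 and Kcnn3 kept their direction and call in every one, and Clcn1 and Kcnj2 in 18, the exception being library totals alone. Leaving out 1 library at a time gave log2 fold changes of -1.83 to -1.68 for Scn4a, -1.04 to -0.89 for Clcn1, -0.90 to -0.62 for Kcnj2, -1.25 to -1.01 for Kcnj11 and 2.90 to 3.12 for Kcnn3, all called. With library totals alone, the log2 fold change was -0.294 for Clcn1 and -0.102 for Kcnj2, whose mean differed by -2.388 CPM (exact permutation p = 0.6). The median of all genes was then 0.733, with 8498 genes higher and 873 lower (3303 and 2962 with TMM). Relative to that median, the values were -1.79 for Scn4a, -1.03 for Clcn1, -0.83 for Kcnj2, -1.17 for Kcnj11 and 2.96 for Kcnn3. The same scaling called 5 sodium channel subunits higher, 8 chloride channel genes higher and 1 lower, 1 inward rectifier or KATP gene higher, 2 calcium-activated channel genes higher and 1 lower, 5 voltage-gated potassium channel genes higher and 5 lower, 7 pump subunits higher, 8 partners higher and 4 lower, and 1 denervation gene lower. With the length trend removed 2625 genes were higher and 3615 lower. At an adjusted p under 0.05, 5 sodium channel subunits and 2 partners were higher, and upper-quartile scaling and the adipocyte covariate also gave 2 partners. Relative to the summed fibre markers, chosen after seeing the data, the changes were -0.032 for Scn4a, 0.727 for Clcn1, 0.938 for Kcnj2 and 0.587 for Kcnj11. Without 1 library, the calcium-activated genes called higher numbered 0 to 1 (0 when control replicate 1, 2 or 4 was left out, and likewise knockout replicate 1, 3 or 4), pump subunits higher 2 to 4 (2 without knockout replicate 4) and partners higher 1 to 2 (2 without control replicate 3). The ratio of Scn4a to Kcnj11 ranged from -0.749 (without knockout replicate 2, exact p = 0.0286) to -0.526, and that of Kcnj2 to Kcnj11 from 0.283 to 0.505 (without control replicate 3, exact p = 0.0286). The cause of these changes was not tested.

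With the replicate number as a block, the values were -1.73 for Scn4a, -0.97 for Clcn1, -0.76 for Kcnj2, -1.11 for Kcnj11 and 3.03 for Kcnn3, all called, with 3215 genes higher and 2908 lower in all, 5 two-pore channels higher and 2 partners higher. Same-numbered libraries correlated at 0.213, 0.035, 0.512 and 0.163, and 2 of the 4 controls (replicates 1 and 3) correlated best with the knockout of their own number, so the numbers were not taken to pair the mice. Kcnn3 rests on 14 to 20 counts per control library, and depth limits the statements on genes near 1 CPM.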
